A study of Ursus arctos with 5 samples.

Results

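Genes of redox defence and of the thioredoxin system were followed in skeletal muscle of the grizzly bear (Ursus arctos) by RNA-seq. Members were chosen by a pattern of gene names, with earlier results of these data known. The pattern takes TXN genes (among them TXNIP), glutathione transferases, peroxiredoxins, glutathione peroxidases, superoxide dismutases, catalase and glutaredoxins. It also takes methionine sulfoxide reductases, quinone reductases, and genes of glutathione synthesis and redox sensing. It found 52 transcripts of 25 genes, out of 26614 transcripts, of which 9093 carry 1 of 4873 gene names. The gastrocnemius, a calf muscle, of 2 captive bears was biopsied in October, when they were active and fed, and again in February, when they hibernated without food and were mostly at rest. The bears are an age class apart, a subadult and an adult by the study's account, although the sample labels give an age of 10 years throughout. No genetic change separates the states, and all biopsies were taken under anaesthesia, with a lower dose of the injected agents in hibernation by the study's methods. Each bear gave 1 single-end Illumina library per state, so 4 libraries carry every comparison and each state has 2. State goes with season, feeding, activity and anaesthetic dose in both bears, and these cannot be told apart.

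Muscle makes superoxide and hydrogen peroxide in its mitochondria and elsewhere. Catalase, glutathione peroxidases and peroxiredoxins remove peroxide, and the thioredoxin and glutathione systems, both fed by NADPH, return oxidized thiols to the reduced form. TXNIP binds and inhibits thioredoxin and also lowers glucose uptake, sestrins are stress-inducible proteins that activate AMPK and restrain mTORC1, and factors of the NFE2L family switch on many antioxidant genes.

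Values are RPKM, which divide reads by transcript length and library depth. Levels of different genes are set side by side on this scale only, since it is not known whether the cDNA had been normalized by nuclease, which removes abundant transcripts, or how shared reads were assigned. Log2 changes are of RPKM + 0.5, hibernating minus active, and are given per bear or as the mean of both with the standard error of limma's fit over all transcripts. Adjusted p-values are from limma with Benjamini-Hochberg adjustment over all 26614 transcripts. A noise score, written after the description of NOISeq, sets each change against all differences between bears in the same state and gives the share that it exceeds in both ratio and size, and 0.8 is the threshold used by the study. It is a description and not a p-value. The steps between low RPKM values placed the libraries at 44.7 to 54.2 M (mega) aligned reads, and members held 0.125% to 0.246% of them. The thinnest member value rested on about 28.0 reads, a counting error of 18.9%. Since the table holds only transcripts at 1 RPKM or more in each library, members with any value under that limit were not analysed here. Transcripts without a gene name could not be chosen either. No superoxide dismutase was among the members, nor were TXN itself, TXNRD1, KEAP1 and NFE2L2, and PRDX3 was the only peroxiredoxin. Which of these reasons applies to each absent gene is not known.

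SESN1 was lower in hibernation in both bears, and its 2 transcripts were the only members that changed 2-fold in the same direction in each of them. TXNIP was 3.66-fold lower in the hibernating subadult and level in the adult. On the mean of both bears the other 23 genes changed less. The bears moved apart in 11 of the 25 genes, TXNIP among them, beside 35.1% of named genes. By limma's test, 0 of the 52 transcripts passed an adjusted p of 0.05, with values from 0.577 to 0.992, and the same holds for all transcripts, 0.0% of which passed. An unadjusted p under 0.05 was reached by 2 members, both of SESN1, and by 2237 of all transcripts (8.41%). With 2 libraries against 2, the smallest p that an exact two-sided permutation test can give is 0.333, so no single gene can be tested in that way.

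**Figure D1:**
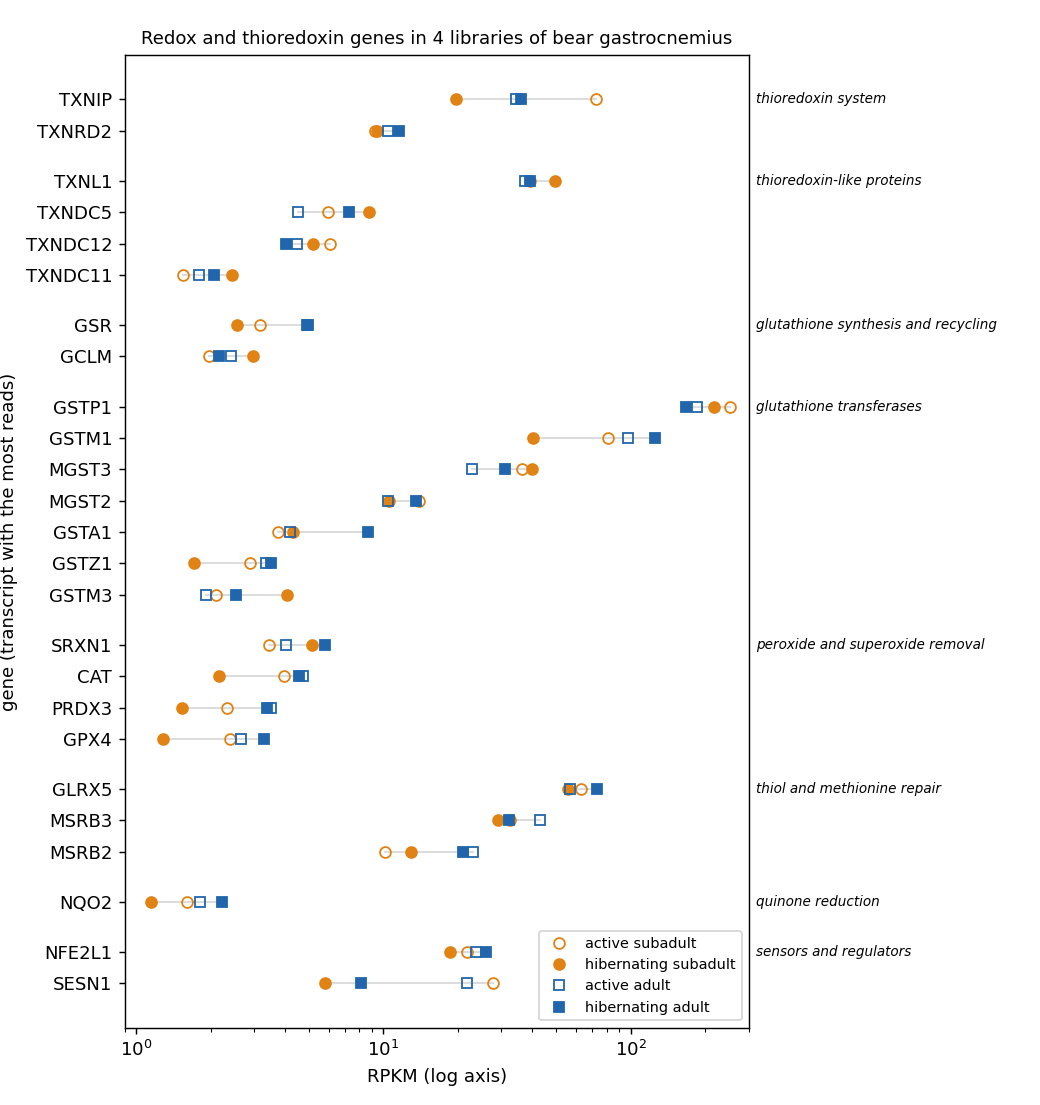
RPKM on a log axis of the 25 genes in each of the 4 libraries, for each gene's most-read transcript, ordered by role. Each row holds 1 gene, its 4 points are single libraries and the grey line spans them. In SESN1 both hibernating values, 5.81 and 8.10, lie below both active values, 27.8 and 21.7, and in TXNIP the active and hibernating subadult, at 72.3 and 19.7, lie on either side of the adult.

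Among sensors and regulators, SESN1 (sestrin 1, a p53- and FoxO-responsive stress gene) read 27.8 RPKM in the active and 5.81 in the hibernating subadult, and 21.7 in the active and 8.10 in the hibernating adult, by its longer transcript of 3317 bases (isotig12977). Both hibernating libraries lay far below both active ones, and the gap between states was wider than that between bears. RPKM was 4.80-fold lower in the hibernating subadult and 2.68-fold lower in the hibernating adult. The mean log2 change was -1.77 (SE 0.26, n = 2 libraries per state), with an adjusted p of 0.577 and a score of 0.960. The second transcript (isotig12978, 2607 bases) read 30.6 RPKM in the active and 5.85 in the hibernating subadult, and 23.8 in the active and 8.46 in the hibernating adult. Its mean log2 change was -1.87 (SE 0.27, adjusted p = 0.577) and its score 0.964. The transcripts come from 1 gene and may share reads, so they are not 2 separate observations.

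Few transcripts of the whole table moved as far. Of all 26614, 51 were at least 2-fold lower in both bears (0.192%), and these carry 16 gene names. Ordered by mean log2 change, the SESN1 transcripts stand at ranks 30 and 37 from the bottom. With either hibernating or active library of either bear left out, the log2 change of isotig12977 stayed between -1.99 and -1.54 and its score between 0.949 and 0.967. With the animal as a block, its adjusted p was 0.220.

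**Figure D2:**
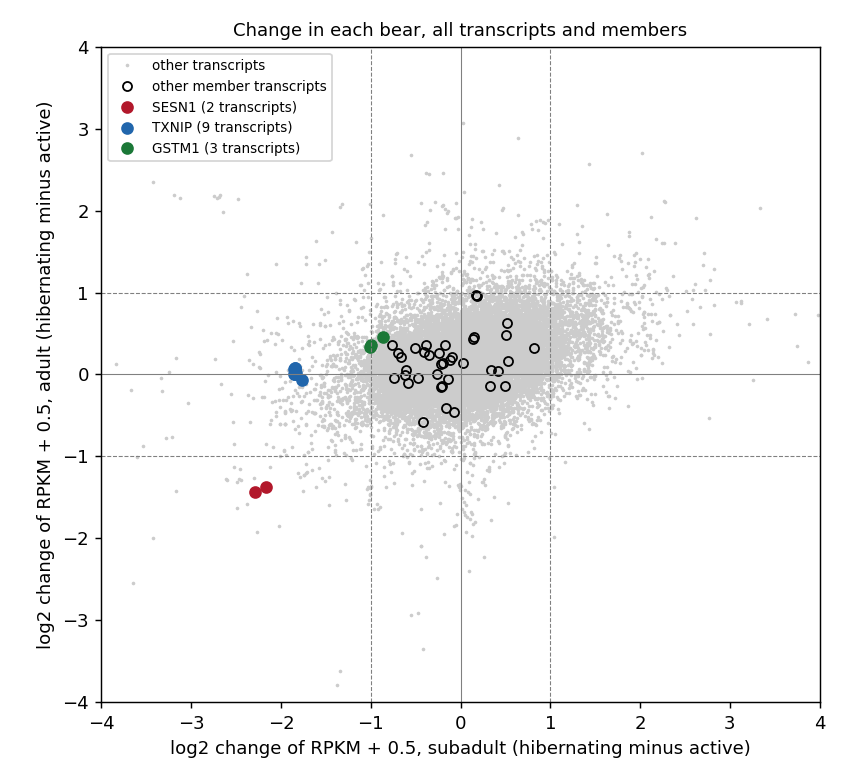
Log2 change of RPKM + 0.5 (hibernating minus active) in the subadult against that in the adult, for all 26614 transcripts (grey, of which 11 lie outside the axes) and the 52 members (coloured or ringed). Dashed lines mark 2-fold changes. The 2 SESN1 transcripts stand alone among members in the lower left corner, and the 9 of TXNIP lie left, near 0 on the adult's axis.

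NFE2L1, the other regulator, is a membrane-bound relative of NRF2 that drives proteasome and antioxidant genes. It read 21.8 and 18.7 RPKM in the active and hibernating subadult and 23.7 and 25.9 in the active and hibernating adult (isotig06249). The hibernating libraries were the lowest and the highest of the 4, with the active ones between. Its mean log2 change was -0.05 (SE 0.24, adjusted p = 0.948), and all 4 of its transcripts were lower in the hibernating subadult and higher in the hibernating adult. The sign of the mean change differed among the transcripts, from -0.05 to 0.05.

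In the thioredoxin system, TXNIP had the higher RPKM and the larger change of the 2 genes measured. Its transcript with the most reads (isotig07966, 2851 bases) read 72.3 RPKM in the active and 19.7 in the hibernating subadult, and 34.3 in the active and 36.0 in the hibernating adult. The active subadult was the highest and the hibernating subadult the lowest of the 4, and both libraries of the adult lay between them. The subadult's log2 change was -1.85 and the adult's 0.07, with a mean of -0.89 (SE 0.44, adjusted p = 0.619) and a score of 0.865. The difference between the bears was not tested, since there is 1 bear of each age class.

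All 9 TXNIP transcripts, isotig07963 to isotig07971 in the assembly's numbering, carried the same pattern. They run from 963 to 3090 bases, their log2 changes were -1.85 to -1.77 (subadult) and -0.07 to 0.07 (adult), and their scores 0.859 to 0.870. The shortest, isotig07971, was the only one with both hibernating values (8.35 and 13.8 RPKM) below both active values (29.6 and 14.5). The score of TXNIP turned on the subadult: with its active library left out, the highest score of the 9 was 0.511, with its hibernating library left out 0.794. The log2 change of isotig07966 was then -0.36 and -0.46.

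Libraries also differed in genes outside redox defence. SCD and FASN, lipid synthesis genes, summed to 302 RPKM in the active subadult against 9.25, 5.75 and 15.9 in the hibernating subadult, hibernating adult and active adult. COL1A1, a fibrillar collagen, read 193 RPKM in the active subadult and 6.79 to 11.0 in the other libraries. Other genes of the connective tissue list went differently, by their most-read transcripts. The active subadult was the lowest library for COL3A1 (isotig35092, 1 of 8 transcripts), at 116 RPKM against 136 to 254, and for COL1A2, at 2.59. FBN1 was lower in hibernation in both bears, at 24.9 and 7.58 RPKM in the active and hibernating subadult and 14.1 and 7.27 in the adult. The active subadult was the highest library in SCD, FASN, COL1A1 (isotig14133) and FBN1 as in TXNIP and SESN1. The part of these genes in the TXNIP and SESN1 results was not tested. Among markers of other cells, 1 of 7 fat genes (PLIN4), 4 of 6 connective tissue genes, 1 of 4 endothelial genes, 1 of 4 immune genes and 0 of 4 blood genes carried a name here, while the other marker names were not analysed here. Connective tissue genes summed to 538 RPKM in the active subadult, 371 when it hibernated, 252 in the active adult and 332 when it hibernated. The muscle myosins MYH1, MYH2 and MYH7 summed to 20077 RPKM in the active subadult, 16402 when it hibernated, and 27000 and 26764 in the adult in the same order. In bulk muscle, fewer cells of a type and less RNA per cell cannot be told apart. For SESN1, with the active subadult left out, the log2 change was -1.59. In the adult, log2 changes were -1.37 for SESN1 (isotig12977), -1.69 for SCD, -0.86 for FASN, -0.91 for FBN1 and 0.40 for COL1A1 (isotig14133). Any link between these changes was not tested.

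TXNRD2, the mitochondrial thioredoxin reductase, was nearly level in its main transcript (isotig23821), at 9.23 and 9.39 RPKM in the active and hibernating subadult and 10.4 and 11.6 in the adult. Its mean log2 change of 0.08 turned to -0.08 and -0.11 when libraries were scaled by the median ratio and the upper quartile. The 2 minor transcripts of TXNRD2 read 1.80 and 2.34 RPKM in the hibernating subadult, their lowest library, against 2.95 to 5.22 in the other libraries.

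**Figure D3:**
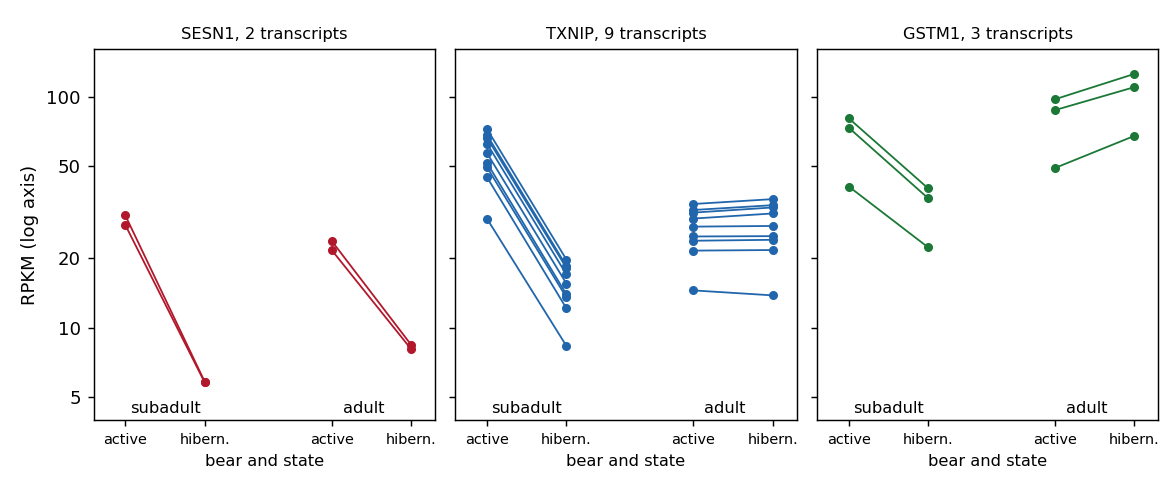
RPKM on a log axis of every transcript of SESN1, TXNIP and GSTM1 in the active and hibernating library of each bear, with a line per transcript and bear. SESN1 slopes down in both bears, TXNIP in the subadult only with adult log2 changes of -0.07 to 0.07, and GSTM1 slopes down in the subadult and up in the adult.

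Of the 4 thioredoxin-like genes none reached a score of 0.8, and their median log2 change was 0.27, beside 0.15 over named genes. TXNDC5, a protein disulfide isomerase of the endoplasmic reticulum, read 5.97 and 8.75 RPKM in the active and hibernating subadult and 4.50 and 7.24 in the active and hibernating adult (isotig21580). Both hibernating libraries lay above both active ones, by 0.52 and 0.63 on the log2 scale, and its score was 0.661. A short second transcript of TXNDC5 differed, with log2 changes of -0.66 and 0.22.

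TXNDC11, another thioredoxin-domain protein of the endoplasmic reticulum, was low in all libraries, at 1.54 and 2.45 RPKM in the active and hibernating subadult and 1.80 and 2.07 in the adult. The hibernating values of this transcript (isotig18463) lay above the active ones, narrowly so in the adult. In the second transcript of TXNDC11 (isotig18464) the states overlapped, with the hibernating subadult at 1.81 RPKM and the active adult at 1.87. TXNL1, a cytosolic thioredoxin-like protein tied to the proteasome, read 39.1 and 49.6 RPKM in the active and hibernating subadult and 37.5 and 39.0 in the adult. Only the hibernating subadult stood out, the mean log2 change was 0.20 (SE 0.22, adjusted p = 0.779), and it came to -0.0043 with upper-quartile scaling. TXNDC12, an endoplasmic reticulum thiol-disulfide oxidoreductase, was slightly lower in hibernation in each bear, at 6.06 and 5.19 RPKM in the subadult and 4.49 and 4.04 in the adult, and the gap between bears was larger than that between states.

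The glutathione transferases, which conjugate glutathione to electrophiles, held the member with the highest RPKM. GSTP1 read 252 and 217 RPKM in the active and hibernating subadult and 186 and 167 in the adult (isotig18267). The bears differed more than the states, with both subadult values above both adult values. Its mean log2 change was -0.19 (SE 0.28, adjusted p = 0.820), and its second transcript was also slightly lower in hibernation in both bears, by -0.14 and -0.06.

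GSTM1 showed the widest disagreement between the bears after TXNIP. It read 80.6 RPKM in the active and 40.1 in the hibernating subadult, and 97.4 in the active and 125 in the hibernating adult (isotig03885). The hibernating libraries were the lowest and the highest of the 4. The subadult's log2 change was -1.00 and the adult's 0.36, and the 3 transcripts spanned -1.00 to -0.86 and 0.33 to 0.46. GSTM and GSTA genes are families of close copies that reads and protein matches may mix, so the names of these members are uncertain. GSTM1 is also the 1 name of the 25 absent as a symbol from the RefSeq gene table of the brown bear assembly UrsArc2.0.

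Unlike GSTM1 in the subadult, GSTM3, of the same family, was higher in hibernation in both bears, from a low level. It read 2.10 and 4.09 RPKM in the active and hibernating subadult and 1.92 and 2.53 in the adult, with both hibernating values above both active ones. GSTA1, an alpha-class transferase, read 3.76 and 4.32 RPKM in the active and hibernating subadult and 4.19 and 8.63 in the adult (isotig20154). The hibernating adult stood apart above the other libraries, and the score of GSTA1 was 0.683, the highest outside SESN1 and TXNIP but for 0.688 in its own second transcript.

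MGST3, a microsomal transferase with peroxidase activity, read 36.2 and 40.0 RPKM in the active and hibernating subadult and 22.9 and 31.0 in the adult (isotig06219). It was higher in hibernation in each bear, yet the active subadult lay above the hibernating adult. MGST2, its relative, read 13.9 and 10.5 RPKM in the subadult and 10.4 and 13.5 in the adult in the same order, so that the bears crossed and the mean log2 change was -0.01. GSTZ1, which acts in tyrosine breakdown, read 2.88 and 1.72 RPKM in the active and hibernating subadult and 3.36 and 3.50 in the adult, and only the hibernating subadult was low.

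Of glutathione synthesis and recycling, the modifier subunit of glutamate-cysteine ligase, GCLM, read 1.96 and 2.98 RPKM in the active and hibernating subadult and 2.43 and 2.16 in the adult. The hibernating subadult was the highest of the 4 and the bears moved apart. GSR, glutathione reductase, read 3.18 and 2.56 RPKM in the active and hibernating subadult and 4.92 and 4.96 in the adult (isotig32708). Both adult libraries lay above both of the subadult, and the mean log2 change was -0.13 (SE 0.38, adjusted p = 0.905). All 3 transcripts of GSR, none longer than 719 bases, were lower in the hibernating subadult and equal or higher in the hibernating adult.

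Among enzymes of peroxide removal, SRXN1 (sulfiredoxin, which repairs overoxidized peroxiredoxins) was the most alike between bears. It read 3.45 RPKM in the active and 5.13 in the hibernating subadult, and 4.03 in the active and 5.80 in the hibernating adult. Both hibernating libraries lay above both active ones, with log2 changes of 0.51 and 0.48. The mean was 0.49 (SE 0.24, adjusted p = 0.619) and the score 0.584, below the threshold.

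Catalase (CAT), which splits hydrogen peroxide in peroxisomes, read 3.95 and 2.15 RPKM in the active and hibernating subadult and 4.72 and 4.57 in the adult. PRDX3, the mitochondrial peroxiredoxin that TXNRD2's pathway keeps reduced, read 2.33 and 1.53 RPKM in the subadult and 3.50 and 3.37 in the adult, again active before hibernating. GPX4, which reduces lipid peroxides in membranes, read 2.39 and 1.28 in the subadult and 2.65 and 3.29 in the adult. In all of these the hibernating subadult was the lowest library, and for CAT and PRDX3 the adult libraries lay close together. None passed a 2-fold change on the log2 scale with the pseudocount: the subadult's log2 changes were -0.74 for CAT, -0.48 for PRDX3 and -0.70 for GPX4.

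For repair of thiols and methionine, GLRX5, a mitochondrial glutaredoxin needed for iron-sulfur clusters, was abundant and nearly level. It read 62.8 and 55.6 RPKM in the active and hibernating subadult and 56.8 and 73.3 in the adult, and its mean log2 change of 0.10 (SE 0.23, adjusted p = 0.886) turned to -0.07 with median-ratio and -0.11 with upper-quartile scaling. MSRB3, a methionine sulfoxide reductase of the endoplasmic reticulum and mitochondria, read 32.5 and 29.1 RPKM in the active and hibernating subadult and 43.1 and 32.3 in the adult (isotig14677). All 3 of its transcripts had both hibernating values below both active ones, with isotig14678 showing the largest log2 changes of -0.42 and -0.58 and a score of 0.655.

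MSRB2, the mitochondrial form, read 10.1 and 12.9 RPKM in the active and hibernating subadult and 23.1 and 20.9 in the adult. The bears differed more than the states, and its mean log2 change of 0.09 turned to -0.07 and -0.10 under the same scalings. NQO2, a quinone reductase and the 1 gene of its role, read 1.60 and 1.15 RPKM in the active and hibernating subadult and 1.82 and 2.23 in the adult (isotig17826). Its mean log2 change was -0.06 (SE 0.29, adjusted p = 0.947), and the hibernating libraries were the lowest and the highest of the 4.

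**Figure D4:**
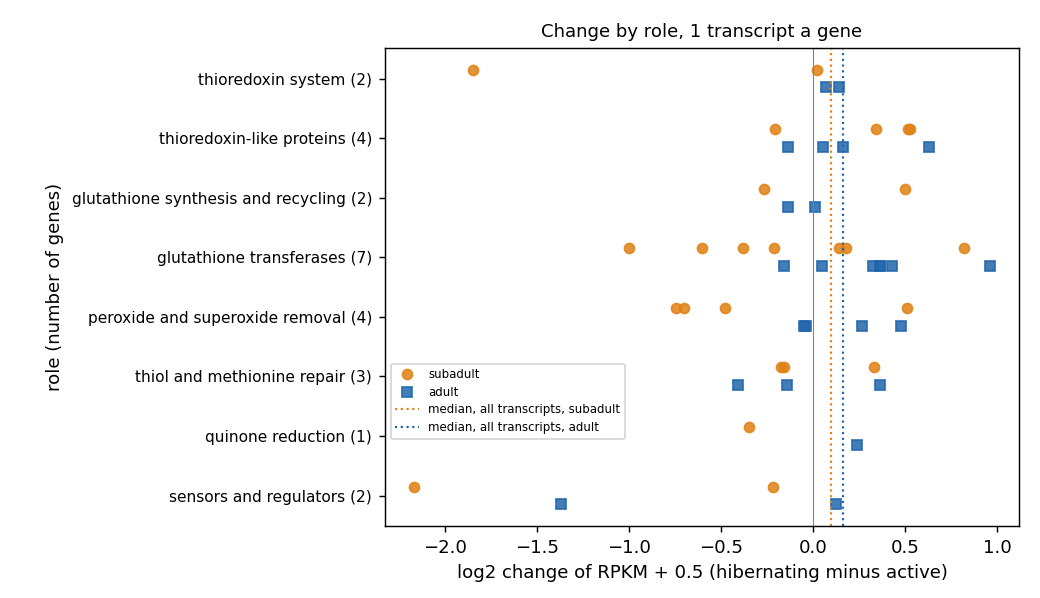
Log2 change of RPKM + 0.5 (hibernating minus active) of the 25 genes by role, 1 point per gene and bear, with dotted lines at the median of all transcripts, 0.10 in the subadult and 0.16 in the adult. Roles spread to both sides of the dotted lines, and the points far to the left are SESN1 in both bears and TXNIP in the subadult.

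Over the members as a group, a score of 0.8 was reached by 11 of 52 transcripts, all lower in hibernation and all of SESN1 or TXNIP, where 1.21% of all transcripts reached it lower and 2.49% higher. By gene this is 2 of 25, beside 4.62% of the 4873 named genes with at least 1 such transcript. A 2-fold change in both bears was met by 0 members in the higher direction, beside 0.496% of all transcripts, and by the 2 of SESN1 in the lower.

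Both hibernating values lay above both active ones in 6 members (SRXN1, GSTM3, TXNDC5, TXNDC11 and 2 transcripts of GSTA1), beside 33.6% of all transcripts. They lay below in 6 others (2 of SESN1, 3 of MSRB3 and 1 of TXNIP), beside 8.4%. This split depends on the scaling, as does that of all transcripts. Under the median ratio 3 members were higher and 14 lower, beside 19.9% and 17.7% of all transcripts. Under the upper quartile 3 were higher and 16 lower, beside 18.0% and 19.9%.

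For the subadult, the median log2 change of the members was -0.37, and for the adult 0.07, beside 0.10 and 0.16 over all transcripts. The mean of both bears had a median of -0.18 against 0.12. With 1 transcript a gene the members' median was -0.05, and over all member transcripts but those of TXNIP it was -0.07. Median-ratio scaling moved the changes of all transcripts by -0.10 (subadult) and -0.19 (adult). The median of all transcripts was then -0.02 and that of the members -0.33.

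The bears moved apart in 28 of 52 members, beside 36.2% of all transcripts. In 26 of these the member was lower in the hibernating subadult and higher in the hibernating adult, beside 24.8% of all transcripts. Of these 26, 8 are transcripts of TXNIP, which were nearly level in the adult. By gene the bears moved apart in 11 of 25, beside 35.1% of the 4873 named genes. The second pattern held in 9 of the 25, beside 23.4% of named genes. The hibernating subadult was the lowest of the 4 libraries in 12 of the 25 genes (48%), beside 22.3% of named genes, a count made after the values were seen. These genes are TXNIP, GSTM1, SESN1, GLRX5, NFE2L1 and MSRB3 and, under a mean of 5 RPKM, CAT, GPX4, GSR, GSTZ1, PRDX3 and NQO2. The hibernating subadult held 50.1 M (mega) aligned reads, in a range of 44.7 to 54.2 M, and the part of depth was not tested. MYH1 was also lowest there, at 2054 RPKM against 4823 to 7801, while MYH2 was lowest in the active subadult (2755) and MYH7 in the hibernating adult (1295). The part of MYH1 in these values was not tested.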

How the data were processed

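Biopsies of gastrocnemius from 2 bears, each active and hibernating, gave 4 single-end Illumina libraries. The authors assembled transcripts de novo, named them by BLAST to human proteins, aligned reads with SOAP2 (up to 2 mismatches) and deposited RPKM per transcript and library. The assignment of reads shared by transcripts, and whether nuclease normalization of cDNA applied to these libraries, are not given in the sources used here. Pooled and paired-end libraries were not analysed here. Columns were matched to state by label and to age class through the study's transcript table, where all 52 members had the same 4 values. No genome build applies and no sequence is shown.

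Log2(RPKM + 0.5) was compared between states by limma (version 3.58.1, under R 4.3.3, with a trended prior and Benjamini-Hochberg adjustment over 26614 transcripts). All 26614 lie at 1 RPKM or more in each library, so a filter at that level removes none. NOISeq was not installed, and its score was written anew in Python 3.11.15 (pandas 2.3.3, numpy 2.4.6, scipy 1.17.1, matplotlib 3.10.9). Depth was read from the RPKM steps of transcripts of up to 500 bases, where 92.4% to 93.1% of low values (2232 to 2252 a library) were whole within 0.1 read, and no count test was run. Intervals from it cover counting error only. The p-values rest on the spread between 2 bears per state, which the trended prior draws towards that of other transcripts of like level.

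Libraries of a bear pair by animal (Pearson r of the bears' deviations between states 0.358 over 26614 transcripts), and a block by animal was an alternative, as were pseudocounts of 0.1 and 1, 2 scalings, an RPKM minimum of 5, a score threshold of 0.9, a fold of 1.5, named transcripts only, the choice of transcript, and each library left out. Every gene is named by its most-read transcript (by mean RPKM times length). Apart from TXNIP, transcripts with a score of 0.8 or a 2-fold change in both bears are given in full, as is the most expressed gene of each role. Of the 9 TXNIP transcripts the most-read is given in full and the others mainly as ranges. Members and lists were chosen with earlier results of these data known. Scripts were tested on simulated data.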

Additional observations from a re-analysis of the deposited data

How the results depend on the processing

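Across pseudocounts of 0.1 and 1, all 25 genes kept the sign of their mean log2 change. The block by animal cannot alter this mean, since each bear has 1 library in each state. The animal as replicate block left 0 of 52 members past an adjusted p of 0.05 (smallest 0.220) and changed no call. Leaving out each library in turn gave 0 to 35 of all transcripts past limma's adjusted p (35 without the hibernating adult, the lone library then assumed to vary like the other state) and 0 members. Members past the score, with the share of all transcripts, were 2 at a threshold of 0.9 (0.943%), 4 without the hibernating subadult (GSTA1 and SESN1; 5.02%), 2 without the active subadult (SESN1; 3.14%), 14 without the hibernating adult (GSTM1, SESN1 and TXNIP; 9.59%) and 11 without the active adult (5.05%). Scores with a library left out were added after seeing the data. Members whose states did not overlap were 12, and with upper-quartile scaling 19 (3 higher and 16 lower, beside 18.0% and 19.9% of all transcripts). The members' median was 0.07 in the adult alone and -0.37 in the subadult alone. Signs turned with scaling by median ratio and upper quartile in GLRX5 (-0.070, -0.11), MSRB2 (-0.067, -0.10) and TXNRD2 (-0.075, -0.11) and with the upper quartile in TXNL1 (-0.0043), and with the choice of transcript in NFE2L1 (0.0022 for the mean of all) and TXNRD2 (-0.34 for the longest, -0.19 for the mean). Leaving out 1 library spanned 0 in CAT (-0.86 to 0.074), GCLM (-0.012 to 0.37), GLRX5 (-0.10 to 0.29), GPX4 (-0.76 to 0.33), GSR (-0.55 to 0.29), GSTM1 (-1.13 to 0.50), GSTP1 (-0.41 to 0.032), GSTZ1 (-0.70 to 0.15), MGST2 (-0.21 to 0.19), MGST3 (-0.040 to 0.61), MSRB2 (-0.48 to 0.67), NFE2L1 (-0.28 to 0.19), NQO2 (-0.42 to 0.31), PRDX3 (-0.73 to 0.20), TXNDC12 (-0.37 to 0.026) and TXNRD2 (-0.060 to 0.23). The causes were not tested. With 2 bears per state, 1 library decides most of these directions, and members near 1 RPKM could not be seen to fall further.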

Other observations

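Genes that feed or surround the redox systems were read from 10 lists holding 104 names, of which 42 genes with 92 transcripts were measured, and 11 transcripts of 4 genes reached a score of 0.8, beside 4.62% of all named genes. Of these transcripts 8 were higher and 3 lower in hibernation, beside 2.49% and 1.21% of all transcripts, and 7 of the 8 belong to ALDH2. HMOX1, heme oxygenase, which breaks down heme, read 10.4 and 11.5 RPKM in the active and hibernating subadult and 6.39 and 25.2 in the adult, with a score of 0.883. The hibernating adult stood above the other libraries. TKT is transketolase of the pentose phosphate pathway, which supplies NADPH. Active before hibernating, it read 22.2 and 8.49 RPKM in the subadult and 7.97 and 7.61 in the adult. Only the active subadult stood apart, while in TXNIP the hibernating subadult also lay below both libraries of the adult.

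ALDH2, the mitochondrial aldehyde dehydrogenase that clears products of lipid peroxidation, was higher in hibernation in both bears. It read 4.88 and 12.1 RPKM in the active and hibernating subadult and 10.6 and 18.2 in the adult (isotig03355), and 7 of its 9 transcripts reached the score. ABCC5, a membrane exporter of organic anions, was lower in both, at 9.47 and 1.97 RPKM in the subadult and 3.69 and 1.60 in the adult (isotig15381), while its transcript with the most reads (isotig07537) had a score of 0.759. The remaining 38 genes had no transcript at 0.8. Genes related or linked to TXNIP were among them. By their most-read transcripts, ARRDC1, ITCH, MLX and MLXIP had log2 changes of -0.32, 0.25, 0.44 and -0.12. Of the 11 transcripts of these genes 3 were higher and 8 lower in hibernation, with a median of -0.12, beside 0.12 over all transcripts. The lists were chosen with earlier results known.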
